A study of Homo sapiens with 70 samples.

Results

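A set of 8 genes of the Hippo pathway output, among the 20090 gene symbols in the deposited tables, were followed across the drug treatments of 2 human hepatoma cell lines. They were picked by name from the pathway, with earlier results of these data known, and no measured value enters the rule: CTGF and CYR61 (now also called CCN2 and CCN1), ANKRD1, AMOTL2 and LATS2, which are known transcriptional targets of YAP and TEAD, and TEAD1, YAP1 and WWTR1, which encode the transcription factor and its coactivators. The name "target genes" therefore fits 5 of the 8, and the other 3 are the machinery that acts on those targets. The study measured poly-A RNA by sequencing in 70 libraries from Hep3B and Huh7 cells, both established lines derived from liver tumors. Cells were seeded and, a day later, given for 24 h either DMSO (the vehicle), 5 µM GW3965, which activates the liver X receptors, 2 µM sorafenib, a multikinase inhibitor used against hepatocellular carcinoma, or both drugs at those doses. Hep3B had 9 libraries in each of the 4 groups, and Huh7 had 8 with DMSO, 8 labelled GW3965, 9 labelled sorafenib and 9 with both drugs. No label tells separate cultures from repeat libraries of one culture, so the p-values measure only the spread between these libraries.

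YAP (encoded by YAP1) and its relative TAZ (encoded by WWTR1) are coactivators that enter the nucleus when the Hippo kinases are inactive and bind the TEAD proteins on DNA. The kinases LATS1 and LATS2 phosphorylate YAP and TAZ, which holds them in the cytoplasm and marks them for degradation, so much of the control lies in protein location and is not seen in RNA. CTGF, CYR61 and ANKRD1 are the targets most often used to read this activity, and AMOTL2 and LATS2 are targets that in turn restrain YAP. In liver the pathway limits organ size, and YAP activity is a known feature of hepatocellular carcinoma.

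TEAD proteins recognise the bases CATTCC, or GGAATG read from the other strand. The 250 bases before the annotated start were searched for this motif on both strands in the RefSeq promoters (build GRCh38.p14). Of the 8 genes, 6 were matched (CTGF, ANKRD1, AMOTL2, LATS2, YAP1 and WWTR1), with 8 start windows in all, and CYR61 and TEAD1 were not. CTGF held 3 motifs, ANKRD1 held 2, YAP1 held 1 and AMOTL2 held 1 before the nearer of its pair of starts. Among 35116 promoters of that length, 11.9% held at least 1 such motif, 0.94% at least 2 and 0.0826% at least 3. No motif with these letters was found in the window of LATS2 or in either window of WWTR1. CTGF is shown whole because it carried the most motifs and is the 1 target of the 5 that rose in no comparison. For the other genes 30 bases around each motif are shown. The motif is in capitals, the rest in lower case, and each reads 5′ to 3′ along the gene.
CTGF promoter, chr6:131951373-131951622, minus strand: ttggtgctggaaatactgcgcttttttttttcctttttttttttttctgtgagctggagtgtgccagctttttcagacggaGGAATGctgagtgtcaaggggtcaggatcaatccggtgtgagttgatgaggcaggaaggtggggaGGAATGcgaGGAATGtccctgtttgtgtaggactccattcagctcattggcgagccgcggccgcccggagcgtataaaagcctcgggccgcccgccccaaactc
ANKRD1 far site, chr10:90921290-90921319, minus strand: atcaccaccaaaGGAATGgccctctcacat
ANKRD1 near site, chr10:90921198-90921227, minus strand: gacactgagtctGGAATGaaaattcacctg
AMOTL2 site, chr3:134374499-134374528, minus strand: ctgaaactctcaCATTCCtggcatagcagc
YAP1 site, chr11:102110273-102110302, plus strand: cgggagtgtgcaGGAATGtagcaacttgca

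Counting back from -1 just before the start, the CTGF motifs begin at -169, -104 and -95, and the nearer pair are separated by 3 bases. The ANKRD1 motifs begin at -220 and -128, the YAP1 motif at -162 and the AMOTL2 motif at -69. GENCODE 29 places the near ANKRD1 site and the AMOTL2 site inside a transcribed exon of the same gene, since its models there begin further upstream. The ANKRD1 window also held the AP-1 motif TGANTCA at -195, which 6.57% of promoters hold. A CArG box, bound by SRF, was in none of the 8 windows and in 1.16% of promoters. No motif overlapped another. A match describes the sequence and does not show that a factor was bound.

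**Figure D1:**
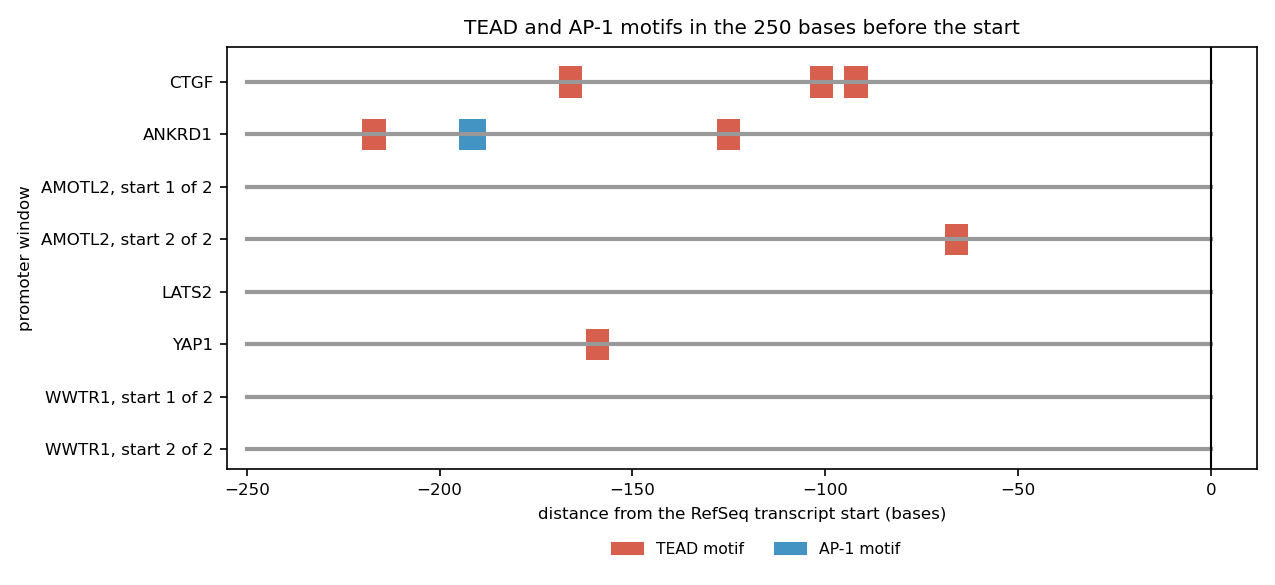
Position of each TEAD motif (red) and AP-1 motif (blue) in the 250 bases before the annotated start, with distance from the start in bases on the x axis and 1 line for each of the 8 start windows. CTGF holds 3 TEAD motifs and ANKRD1 holds 2, while LATS2 and WWTR1 hold none.

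The tables hold group comparisons and no values of single libraries, so each level below is a group level in CPM (read counts scaled to the size of the library) computed from the authors' mean and fold change. All 8 genes had a nonzero count in 70 of 70 libraries and a mean of at least 2 CPM in all 6 tables. CPM is not per length, so levels are compared between groups of a gene and not between genes. Levels of Hep3B and Huh7 come from separate tables and are set side by side with no test. It is also a share of all RNA, so in these bulk samples fewer cells expressing a gene and less RNA per cell cannot be told apart. All 10 hepatocyte markers examined were at 2 CPM or more in every table, from 37.4 to 9805 CPM. Of 9 markers of blood, endothelial and stromal cells, 2 (CD68 and PDGFRB) reached 2 CPM in every table, and the 9 ranged from 0.183 to 16.4 CPM.

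The single-drug groups of Huh7 went against their labels in the genes that check each drug. In the authors' deposited tables ABCG1, a target of the liver X receptors, had a log2 fold change of 5.99 with GW3965 and 0.59 with sorafenib in Hep3B, but 0.75 in the Huh7 group labelled GW3965 and 3.82 in the group labelled sorafenib. ABCA1, another such target, gave 1.58 and -0.28 in Hep3B against 0.28 and 1.30 in those Huh7 groups in the authors' deposited tables. DUSP6, which reads ERK signaling, gave 0.33 and -2.40 in Hep3B but -1.70 and -0.02 in Huh7 in the authors' deposited tables. With both drugs the lines had the same direction in all 3 genes. The Huh7 single-drug groups are therefore named as labelled throughout, and every statement that sets a single drug in Huh7 against Hep3B rests on those labels.

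With both drugs, CYR61, ANKRD1, AMOTL2 and TEAD1 rose in Hep3B and in Huh7, and YAP1 fell in both lines. WWTR1 fell in Hep3B and rose in Huh7. LATS2 rose in Huh7 and did not pass the test in Hep3B. CTGF passed the test with both drugs in neither line. A gene is called where the authors' edgeR FDR, adjusted over all 32321 transcripts, was under 0.05. Fold changes are drug over DMSO, and each approximate 95% interval was computed from the authors' fold change and p-value. Its error was never taken below the median among genes of like expression. The 3 comparisons of a line share its DMSO libraries.

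CYR61 and CTGF are secreted matricellular proteins of the CCN family that signal through integrins. The CYR61 level in Hep3B was 16.3 CPM with DMSO, 23.1 with GW3965, 26.8 with sorafenib and 29.8 with both drugs. In Huh7 it was 41.8 CPM with DMSO, 52.1 in the labelled GW3965 group, 39.4 in the labelled sorafenib group and 150.3 with both. Each Hep3B drug group thus lay above its control, while in Huh7 the group given both drugs stood far above the other 3. In the authors' deposited table the both-drug change was 1.83-fold in Hep3B (log2 0.87, approximate 95% interval 0.63 to 1.11, edgeR FDR 1.48e-11). The same change in Huh7 was 3.60-fold (log2 1.85, interval 1.24 to 2.46, edgeR FDR 1.98e-08) in the authors' deposited table.

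With single drugs CYR61 rose in Hep3B and not past the threshold in Huh7. The authors' deposited tables gave log2 0.51 with GW3965 (edgeR FDR 0.0496) and 0.72 with sorafenib (edgeR FDR 3.29e-06) in Hep3B. The GW3965 call was lost when p-values were adjusted over the representative transcripts alone (adjusted p = 0.0544 from the authors' edgeR p-values). For Huh7 the authors' deposited tables gave 0.32 in the labelled GW3965 group (edgeR FDR 0.691) and -0.09 in the labelled sorafenib group (edgeR FDR 1).

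The CTGF level in Hep3B was 64.6 CPM with DMSO, 78.8 with GW3965, 57.7 with sorafenib and 53.8 with both drugs. In Huh7 it was 160.1 CPM with DMSO, 88.1 in the labelled GW3965 group, 149 in the labelled sorafenib group and 126 with both. The lowest Huh7 group was that labelled GW3965, and this was the single called change of CTGF. In the authors' deposited table CTGF fell there by 0.86 on the log2 scale (0.55-fold, approximate 95% interval -1.39 to -0.34, edgeR FDR 0.00962). With both drugs the authors' deposited tables gave log2 -0.26 in Hep3B (interval -0.58 to 0.05, edgeR FDR 0.176) and -0.35 in Huh7 (interval -0.68 to -0.01, edgeR FDR 0.0877). The upper ends of these intervals lie well under the both-drug changes of CYR61 in the same tables. For the other Hep3B groups the authors' deposited tables gave 0.29 with GW3965 (edgeR FDR 0.538) and -0.16 with sorafenib (edgeR FDR 0.651). The Huh7 group labelled sorafenib had -0.10 (edgeR FDR 1) in the authors' deposited table.

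ANKRD1 encodes an ankyrin repeat protein of muscle and stressed cells that is a sensitive readout of YAP. Its Hep3B level was 16.5 CPM with DMSO, 22.6 with GW3965, 44.0 with sorafenib and 39.0 with both drugs. In Huh7 it was 33.0 CPM with DMSO, 42.0 in the labelled GW3965 group, 25.8 in the labelled sorafenib group and 118 with both. Sorafenib alone gave the highest Hep3B level, whereas in Huh7 both drugs gave the highest. ANKRD1 rose 2.67-fold with sorafenib in Hep3B in the authors' deposited table (log2 1.42, interval 1.04 to 1.80, edgeR FDR 4.40e-12). With both drugs the authors' deposited tables gave 2.37-fold in Hep3B (edgeR FDR 1.78e-08) and 3.57-fold in Huh7 (edgeR FDR 4.34e-06). GW3965 gave log2 0.46 in Hep3B (edgeR FDR 0.458) and, as labelled, 0.35 in Huh7 (edgeR FDR 0.703) in the authors' deposited tables. The Huh7 group labelled sorafenib had -0.36 (edgeR FDR 1) in the authors' deposited table. The Huh7 intervals were wide, from 1.11 to 2.57 with both drugs and from -1.28 to 0.57 in the labelled sorafenib group on the log2 scale, computed from the authors' deposited tables.

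AMOTL2, an angiomotin that binds YAP and holds it at cell junctions, had 50.5 CPM with DMSO in Hep3B, 56.4 with GW3965, 89.8 with sorafenib and 121 with both drugs. Its Huh7 level was 78.6 CPM with DMSO, 104 in the labelled GW3965 group, 78.6 in the labelled sorafenib group and 159 with both. The both-drug group was highest in each line, and the DMSO and labelled sorafenib levels of Huh7 were nearly equal. AMOTL2 rose 2.39-fold with both drugs in Hep3B (interval 1.01 to 1.49 on the log2 scale, edgeR FDR 1.61e-23) in the authors' deposited table. In Huh7 it rose 2.02-fold (interval 0.66 to 1.37 on the log2 scale, edgeR FDR 9.96e-08) in the authors' deposited table. The Hep3B sorafenib group gave 1.78-fold (edgeR FDR 4.75e-08) in the authors' deposited table. The groups that did not pass were Hep3B GW3965 at log2 0.16 (edgeR FDR 0.701), Huh7 labelled GW3965 at 0.41 (edgeR FDR 0.234) and Huh7 labelled sorafenib at -0.0015 (edgeR FDR 1) in the authors' deposited tables.

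LATS2, the Hippo kinase that YAP itself induces, moved least. Its Hep3B levels lay between 20.6 CPM with DMSO and 21.9 with GW3965. The Huh7 levels were 27.9 CPM with DMSO, 31.1 in the labelled GW3965 group, 25.8 in the labelled sorafenib group and 34.3 with both drugs. LATS2 rose 1.23-fold with both drugs in Huh7 in the authors' deposited table (log2 0.30, interval 0.12 to 0.48, edgeR FDR 0.00393). In Hep3B the authors' deposited table gave log2 0.05 with both drugs (edgeR FDR 0.771). The Hep3B values with single drugs were 0.09 for GW3965 (edgeR FDR 0.850) and 0.04 for sorafenib (edgeR FDR 1) in the authors' deposited tables. The Huh7 values were 0.16 for the labelled GW3965 group (edgeR FDR 0.506) and -0.11 for the labelled sorafenib group (edgeR FDR 0.949) in the authors' deposited tables.

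TEAD1, a DNA-binding partner of YAP and TAZ, was 77.7 CPM with DMSO in Hep3B, 82.2 with GW3965, 102 with sorafenib and 109 with both drugs. Its Huh7 level was 57.3 CPM with DMSO, 74.5 in the labelled GW3965 group, 52.3 in the labelled sorafenib group and 107 with both. The lines began at different levels and ended close together. TEAD1 rose 1.41-fold with both drugs in Hep3B (interval 0.28 to 0.71 on the log2 scale, edgeR FDR 2.72e-05) in the authors' deposited table. In Huh7 it rose 1.88-fold (interval 0.72 to 1.10 on the log2 scale, edgeR FDR 1.36e-19) in the authors' deposited table. It also passed in the Huh7 group labelled GW3965, at log2 0.38 (edgeR FDR 0.0130), in the authors' deposited table. The Hep3B sorafenib value in the authors' deposited table was log2 0.39 (edgeR FDR 0.0490), a call that was lost over the representative transcripts alone (adjusted p = 0.0521 from the authors' edgeR p-values). Hep3B GW3965 had 0.08 (edgeR FDR 0.837) and Huh7 labelled sorafenib -0.13 (edgeR FDR 0.868) in the authors' deposited tables.

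YAP1 was 116 CPM with DMSO in Hep3B, 119.8 with GW3965, 97.5 with sorafenib and 92.2 with both drugs. In Huh7 it was 104 CPM with DMSO, 92.4 in the labelled GW3965 group, 79.0 in the labelled sorafenib group and 78.8 with both. YAP1 RNA was thus lowest where both drugs were given, at about the level of sorafenib as labelled. With both drugs YAP1 fell to 0.796-fold in Hep3B (interval -0.50 to -0.16 on the log2 scale, edgeR FDR 0.000363) in the authors' deposited table. In Huh7 it fell to 0.757-fold (interval -0.57 to -0.23 on the log2 scale, edgeR FDR 1.33e-05) in the authors' deposited table. The Huh7 group labelled sorafenib gave nearly the same change, log2 -0.40 (edgeR FDR 4.05e-07), in the authors' deposited table. YAP1 was the 1 gene of the 8 called in that comparison. In Hep3B GW3965 gave 0.05 (edgeR FDR 0.883) and sorafenib -0.25 (edgeR FDR 0.0702), and the Huh7 group labelled GW3965 gave -0.17 (edgeR FDR 0.119), in the authors' deposited tables. The 3 further YAP1 transcripts in the tables share most reads with the representative one, and the authors' deposited table gave -0.35 to -0.33 for them with both drugs in Hep3B.

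WWTR1, the gene for TAZ, moved in opposite directions in the lines. In Hep3B it was 39.4 CPM with DMSO, 36.0 with GW3965, 31.2 with sorafenib and 23.7 with both drugs. In Huh7 it was 20.3 CPM with DMSO, 23.7 in the labelled GW3965 group, 20.02 in the labelled sorafenib group and 25.2 with both. The Hep3B control stood highest and the Huh7 control near the bottom, and with both drugs the lines were close. WWTR1 fell to 0.602-fold with both drugs in Hep3B (interval -0.90 to -0.56 on the log2 scale, edgeR FDR 1.57e-16) in the authors' deposited table. It rose 1.24-fold with both drugs in Huh7 (interval 0.11 to 0.52 on the log2 scale, edgeR FDR 0.00648) in the authors' deposited table. It also fell with sorafenib alone in Hep3B, with log2 -0.34 (edgeR FDR 0.00372), in the authors' deposited table. The other values were -0.13 with GW3965 in Hep3B (edgeR FDR 0.335), 0.23 in the labelled GW3965 group of Huh7 (edgeR FDR 0.101) and -0.02 in its labelled sorafenib group (edgeR FDR 1) in the authors' deposited tables. For CTGF, LATS2, TEAD1, YAP1 and WWTR1, GENCODE 29 holds an antisense gene on the other strand. The sources used here do not state whether strand was used in counting, and reads of each pair cannot be told apart.

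**Figure D2:**
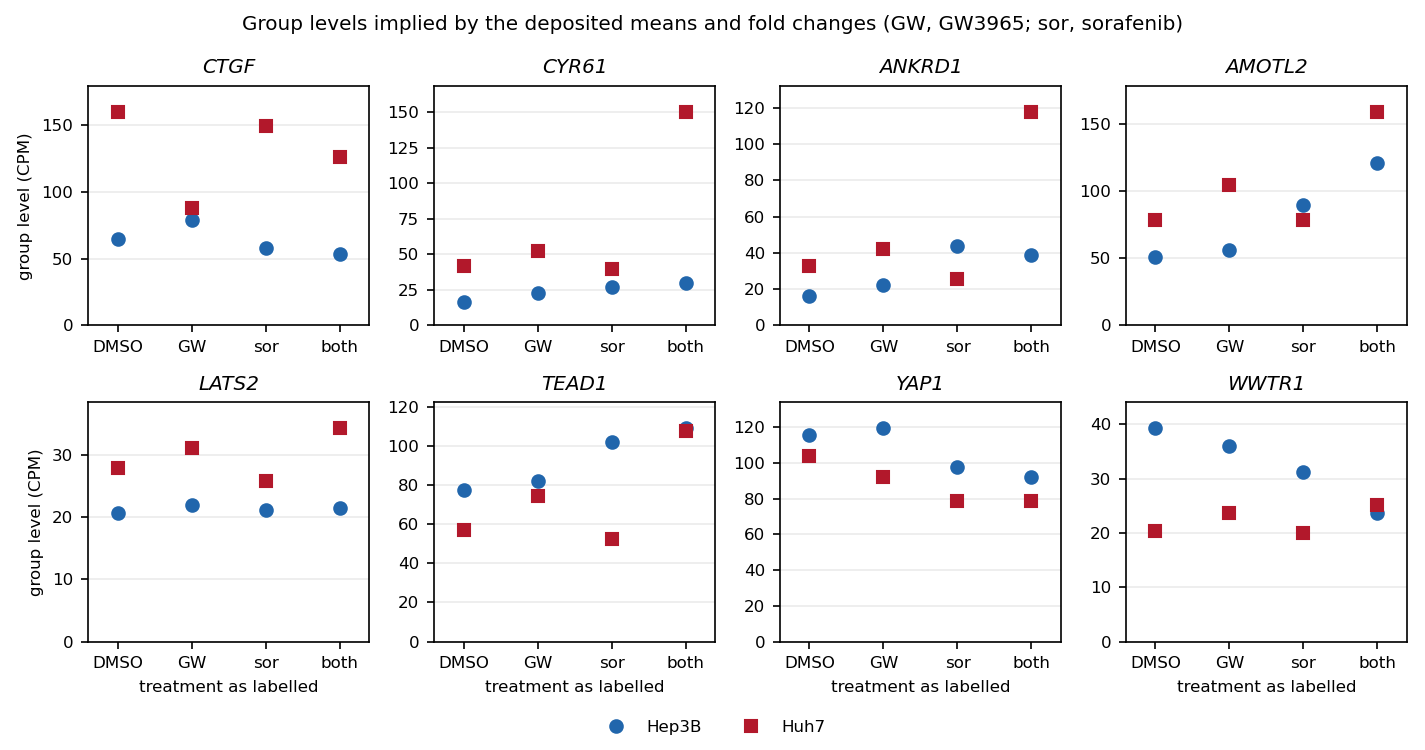
Group level of each gene in CPM (y axis, from 0) for the 4 treatments as labelled (x axis), with Hep3B as blue circles and Huh7 as red squares. There are no error bars because the tables hold no values of single libraries. CYR61 in Huh7 goes from 41.8 to 150.3 CPM with both drugs, while CTGF goes from 160.1 to 126.

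With both drugs 6 of 8 were called in Hep3B, 4 higher and 2 lower, where 72.1% of all genes at 2 CPM or more were called. In Huh7 7 of 8 were called with both drugs, 6 higher and 1 lower, against 61.7% of such genes. Sorafenib called 5 of 8 in Hep3B (51.5% of such genes) and GW3965 called 1 of 8 (11.2%). In Huh7 2 of 8 were called in the labelled GW3965 group (31.4%) and 1 of 8 in the labelled sorafenib group (3.32%). These shares count calls in either direction. With 8 genes, a share near the background is no result about the group.

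The directions can be set beside the background as well. With both drugs 36.7% of genes at 2 CPM or more were called higher and 35.4% lower in Hep3B, and 35.5% higher and 26.1% lower in Huh7. The median log2 fold change of the 8 genes with both drugs was 0.27 in Hep3B, where the median over all genes at 2 CPM or more was 0.01, both from the authors' deposited table. In Huh7 the median of the 8 was 0.61, where all such genes had 0.07, in the authors' deposited table. In the Huh7 group labelled sorafenib the 8 had a median of -0.11 and all such genes -0.03 in the authors' deposited table.

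**Figure D3:**
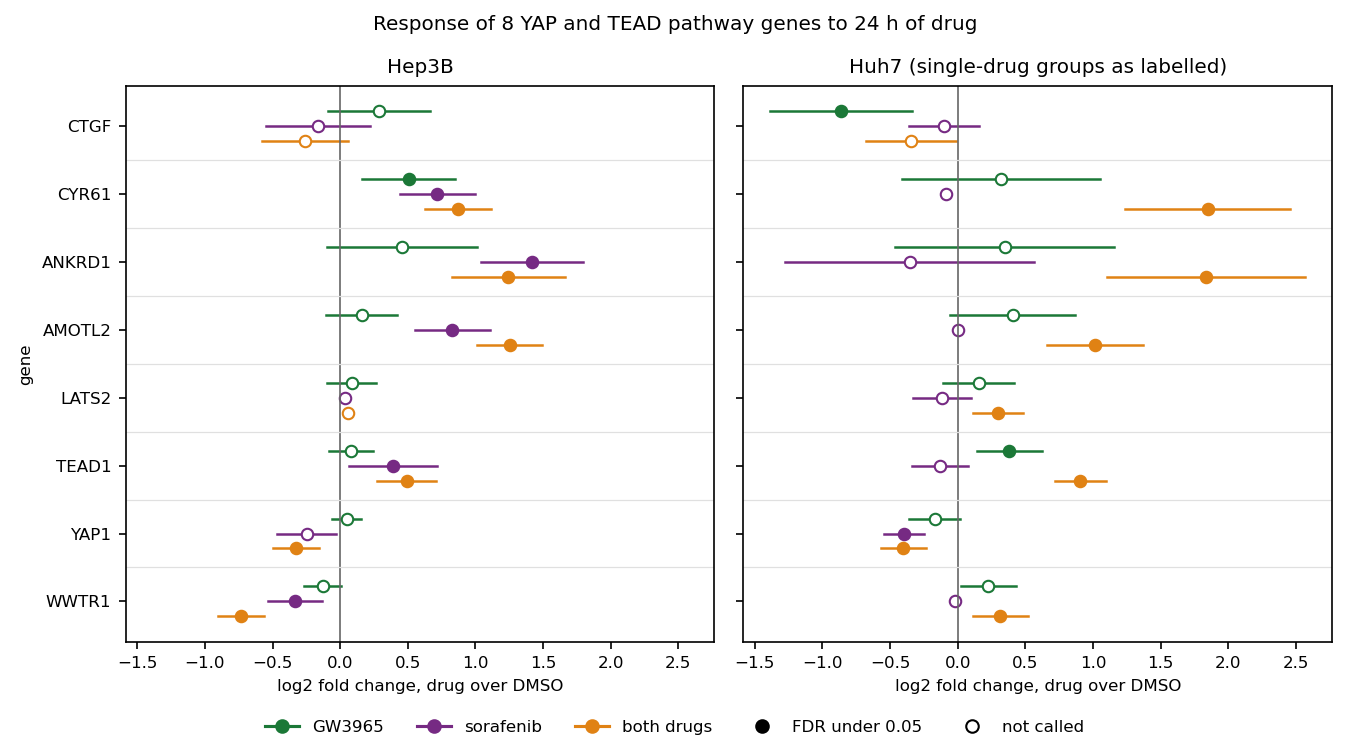
Log2 fold change of drug over DMSO (x axis) for each of the 8 genes, with GW3965 in green, sorafenib in purple and both drugs in orange, and filled points where the authors' FDR was under 0.05. Bars are approximate 95% intervals computed from the p-value, with an error never below the median among genes of like expression. They are left out where p exceeds 0.5. CYR61, ANKRD1, AMOTL2 and TEAD1 lie to the right with both drugs in both lines, and WWTR1 lies on opposite sides of 0.

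Whether the second drug added to the first was examined by differences of the authors' log2 fold changes. These used an approximate normal test with standard errors taken from the authors' p-values and Benjamini-Hochberg adjustment over all genes at 2 CPM or more. Shared DMSO libraries make the summed error too large within a line. Where a p exceeded 0.5, however, the error was the median among genes of like expression. That median can be too small for a gene with a wide spread, so intervals that rest on it may be too narrow. For CYR61 in Huh7 it stood in for the labelled sorafenib group, while the errors of the labelled GW3965 and both-drug groups were 0.37 and 0.31. In Hep3B 1 of the 8 genes was called between both drugs and sorafenib alone (31.1% of all genes tested). This was WWTR1, lower by 0.40 on the log2 scale with both drugs (difference -0.40, interval -0.66 to -0.13, adjusted p = 0.0142 by the approximate test). For AMOTL2 the difference was 0.43 (interval 0.06 to 0.79) with an adjusted p of 0.0670 by the approximate test. For CYR61 it was 0.15 (interval -0.22 to 0.52) and for ANKRD1 -0.17 (interval -0.74 to 0.39). CTGF had -0.10 (interval -0.60 to 0.40), TEAD1 0.10 (interval -0.29 to 0.49), YAP1 -0.08 (interval -0.36 to 0.20) and LATS2 0.02 (interval -0.26 to 0.29).

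Against GW3965 alone, the Hep3B both-drug group had 6 of 8 genes called (63.8% of genes tested, 30.7% higher and 33.2% lower). AMOTL2 was higher by 1.10, ANKRD1 by 0.79 and TEAD1 by 0.41 on the log2 scale. WWTR1, CTGF and YAP1 were lower, with differences of -0.60, -0.55 and -0.38. The CTGF call (adjusted p = 0.0467 by the approximate test) was lost without the expression minimum (0.0712) and when the median over all genes was subtracted (0.0538). The ANKRD1 call (adjusted p = 0.0409 by the approximate test) was lost without the minimum (0.0625). CYR61, at 0.36 (interval -0.06 to 0.78), and LATS2, at -0.03 (interval -0.29 to 0.22), did not pass.

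In Huh7, 6 of 8 genes were called between both drugs and the labelled sorafenib group (47.1% of genes tested), and all 6 were higher with both drugs, as were 29.1% of genes tested. ANKRD1 was higher by 2.19 (interval 1.02 to 3.37), CYR61 by 1.93 (1.30 to 2.56), TEAD1 by 1.04 (0.76 to 1.32) and AMOTL2 by 1.02 (0.64 to 1.40) on the log2 scale. LATS2 was higher by 0.41 and WWTR1 by 0.33. The WWTR1 call (adjusted p = 0.0295 by the approximate test) was lost with the largest error of its line (0.0514) and after subtraction of the median over all genes (0.117). YAP1 had -0.0031 (interval -0.23 to 0.22) and CTGF -0.24 (interval -0.67 to 0.18), and neither passed. Against the labelled GW3965 group 3 of 8 were called (30% of genes tested, 20.4% higher): CYR61 at 1.53, ANKRD1 at 1.49 and TEAD1 at 0.53, all higher with both drugs. The ANKRD1 call (adjusted p = 0.0291 by the approximate test) was lost after subtraction of the median over all genes (0.0502), and YAP1, at -0.34, was called there (0.0323). Without that subtraction YAP1 had -0.23 (interval -0.48 to 0.02). AMOTL2 had 0.61 (interval 0.03 to 1.19, adjusted p = 0.106 by the approximate test), CTGF 0.52 (interval -0.11 to 1.14), LATS2 0.14 (interval -0.18 to 0.46) and WWTR1 0.09 (interval -0.20 to 0.37).

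If the drugs acted independently on the log scale, the both-drug change would equal the sum of the single-drug changes. This sum is the same whichever Huh7 single-drug label is right. In Huh7, CYR61 exceeded the sum by 1.61 on the log2 scale (interval 0.65 to 2.57, adjusted p = 0.00926 by the approximate test). TEAD1 exceeded it by 0.66 (interval 0.29 to 1.03, adjusted p = 0.00555 by the approximate test). These were the 2 of 8 genes called, where 21.2% of all genes tested were called in either direction and 15.3% above the sum, and the median departure of all genes was 0.14. ANKRD1 had the largest departure of the 8, 1.85, but with a wide interval (0.42 to 3.27) and an adjusted p of 0.0525 by the approximate test. With errors taken from the p-values alone its adjusted p was 0.0483 by the approximate test. AMOTL2 (0.61, adjusted p = 0.140 by the approximate test) and CTGF (0.62, adjusted p = 0.190 by the approximate test) did not pass. Nor did LATS2 at 0.26 (interval -0.13 to 0.64), YAP1 at 0.17 (interval -0.12 to 0.46) and WWTR1 at 0.11 (interval -0.22 to 0.44).

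In Hep3B 0 of 8 genes departed from the sum in the approximate test, and 0 had an unadjusted p under 0.05, where 22.2% of all genes tested were called. The departures ran from -0.63 for ANKRD1 (interval -1.42 to 0.16) to 0.27 for AMOTL2 (interval -0.18 to 0.72). CYR61 had -0.36 (interval -0.86 to 0.15), so a departure as large as that of CYR61 in Huh7 lies outside its Hep3B interval. TEAD1 had 0.02 (interval -0.41 to 0.44), LATS2 -0.07 (interval -0.40 to 0.26) and YAP1 -0.13 (interval -0.43 to 0.17). WWTR1 had -0.27 (interval -0.56 to 0.03) and CTGF -0.39 (interval -1.01 to 0.24). No other tool was run on these differences, and the departures of the lines were not tested against each other.

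**Figure D4:**
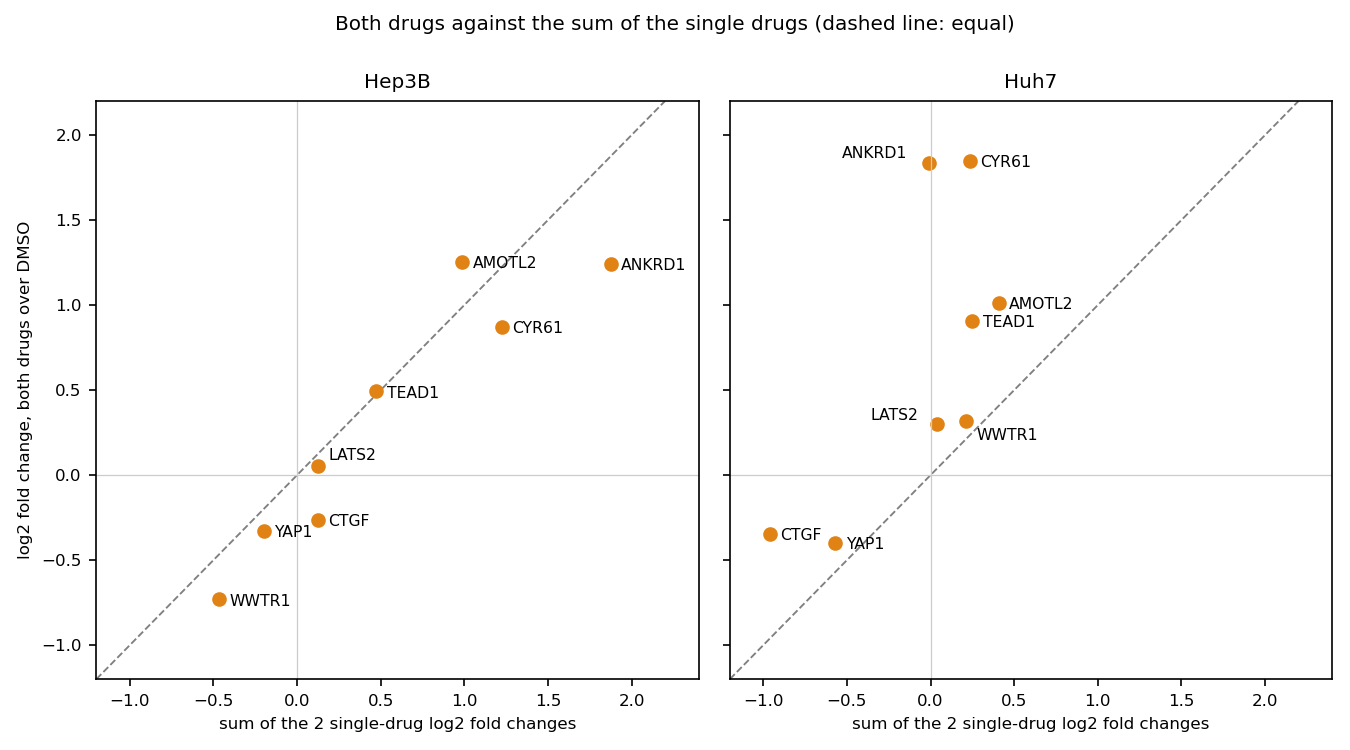
Log2 fold change with both drugs (y axis) against the sum of the single-drug log2 fold changes (x axis) for the 8 genes in each line, with a dashed line where they are equal. In Huh7 CYR61 and ANKRD1 sit at 1.85 and 1.84 on the y axis, at sums of 0.23 and -0.01, while the Hep3B points lie on either side of the line.

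The lines were compared directly for each treatment with the same approximate test. With both drugs 3 of 8 genes were called (44% of genes tested), all lower in Hep3B, as were 26.3% of genes tested. These were WWTR1 (Hep3B minus Huh7 -1.05, interval -1.31 to -0.78), CYR61 (-0.98, interval -1.63 to -0.32) and TEAD1 (-0.41, interval -0.70 to -0.13). ANKRD1 (-0.59, interval -1.43 to 0.25), AMOTL2 (0.24, interval -0.19 to 0.67), LATS2 (-0.25, interval -0.50 to 0.01), YAP1 (0.07, interval -0.17 to 0.31) and CTGF (0.08, interval -0.38 to 0.54) did not pass. For sorafenib as labelled 5 of 8 were called (35.9% of genes tested): ANKRD1 at 1.77, AMOTL2 at 0.83, CYR61 at 0.80 and TEAD1 at 0.52 were higher in Hep3B, and WWTR1 at -0.32 was lower. CTGF (-0.06, interval -0.53 to 0.40), LATS2 (0.15, interval -0.15 to 0.45) and YAP1 (0.15, interval -0.11 to 0.41) did not pass. For GW3965 as labelled 2 of 8 were called (24.8% of genes tested), CTGF at 1.15 (interval 0.50 to 1.80) and WWTR1 at -0.36 (interval -0.60 to -0.11). TEAD1 had -0.30 (adjusted p = 0.127 by the approximate test) and YAP1 0.22 (adjusted p = 0.131 by the approximate test). CYR61 (0.19, interval -0.62 to 0.99), ANKRD1 (0.11, interval -0.87 to 1.09), AMOTL2 (-0.25, interval -0.78 to 0.28) and LATS2 (-0.07, interval -0.39 to 0.25) did not pass either. The CYR61 sorafenib call was lost with the largest error of its line (adjusted p = 0.107 by the approximate test), and so was that of WWTR1 (0.0786). The part of the Huh7 labels in these single-drug differences was not tested.

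CTGF and CYR61, often read side by side as markers of YAP, had unlike fold changes over the 6 comparisons. Likeness was measured as the root mean square difference of the 6 log2 fold changes, over 10614 genes at 2 CPM or more in every table. Between CTGF and CYR61 it was 1.18, which put CYR61 at rank 10297 from CTGF and CTGF at rank 8457 from CYR61. The genes most like CTGF included PDSS1 (0.115), RUVBL1 (0.161), PUS7 (0.165) and PLXND1 (0.168), against a median of 0.492 over all genes. Those most like CYR61 were MICALL1 (0.190), SIPA1L2 (0.210), SQSTM1 (0.216), TSPAN15 (0.236) and RELB (0.241), against a median of 0.938. These distances are descriptions, since the 6 comparisons share control libraries.

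The kinase cascade upstream of YAP was also read, from 21 genes. All 21 were at 2 CPM or more in every table, so their counts stand beside the shares of such genes given above (36.7% higher and 35.4% lower in Hep3B, 35.5% higher and 26.1% lower in Huh7). With both drugs 9 were called higher and 8 lower in Hep3B (median log2 0.10), and 12 higher and 2 lower in Huh7 (median 0.31), in the authors' deposited tables. JUB (now AJUBA), a LIM protein that binds and inhibits LATS kinases, rose in both lines, by log2 1.77 in Hep3B and 1.14 in Huh7 in the authors' deposited tables. TAOK3, a kinase related to those that activate the Hippo kinases, rose by 1.36 and 0.89 in the authors' deposited tables. RASSF1, a scaffold of the Hippo kinases, rose by 1.67 in Hep3B and had 0.16 (edgeR FDR 0.428) in Huh7 in the authors' deposited tables. FRMD6, an upstream activator, fell by 1.48 on the log2 scale in Hep3B and rose by 0.24 in Huh7 in the authors' deposited tables.

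Among 7 other TEADs, cofactors and angiomotins, 2 were called higher and 3 lower with both drugs in Hep3B (median log2 -0.01), and 2 higher and 2 lower in Huh7 (median -0.08), in the authors' deposited tables. All 7 were at 2 CPM or more in those tables. The rise of TEAD1 was not shared by TEAD2, which fell by 1.28 on the log2 scale in Hep3B and had -0.26 (edgeR FDR 0.294) in Huh7 in the authors' deposited tables. VGLL4, a cofactor that competes with YAP for TEAD, fell in both lines, with -0.75 in Hep3B and -0.43 in Huh7 in the authors' deposited tables. VGLL3, another TEAD cofactor, rose by 0.59 in Hep3B and 1.87 in Huh7 in the authors' deposited tables. AMOTL1, the relative of AMOTL2, had -0.01 (edgeR FDR 1) in Hep3B and rose by 0.55 in Huh7 in the authors' deposited tables.

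CTGF, CYR61, ANKRD1, AMOTL2 and LATS2 belong to a published signature of 22 YAP and TAZ targets, and the other 17 were counted with both drugs. PTPN14 is among these 17 and also among the kinase cascade genes above, and is counted in both lists. In Hep3B 7 were called higher and 6 lower (median log2 0.10), and in Huh7 10 higher and 1 lower (median 0.62), in the authors' deposited tables. This list and the next 2 hold genes under 2 CPM. Over all 20090 genes 26% were called higher and 23.6% lower with both drugs in Hep3B (median log2 -0.06), and 24.3% higher and 17.3% lower in Huh7 (median 0.16), in the authors' deposited tables. Of the 13 signature genes at 2 CPM or more, 5 were called higher and 5 lower in Hep3B, and 9 higher and 1 lower in Huh7. GADD45A, a stress-induced growth arrest gene, rose by log2 2.87 in Hep3B and 2.21 in Huh7, and MYOF, a membrane repair protein, by 1.50 and 2.54, in the authors' deposited tables. NUAK2, a kinase, had 0.10 (edgeR FDR 0.741) in Hep3B and rose by 2.03 in Huh7 in the authors' deposited tables. NT5E, the ectoenzyme CD73, went the other way, with -1.81 in Hep3B and -1.51 in Huh7 in the authors' deposited tables.

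SRF and its actin-regulated MRTF coactivators share several targets with YAP, so 18 of their targets were counted too. With both drugs 8 were called higher and 2 lower in Hep3B (median log2 0.23), and 14 higher and 0 lower in Huh7 (median 0.74), in the authors' deposited tables. At 2 CPM or more, 5 of 14 were called higher and 2 lower in Hep3B, and 14 of 16 higher in Huh7. FHL2, a LIM protein, rose by 1.92 and 2.05, TAGLN, an actin-binding protein of smooth muscle, by 1.67 and 1.92, and ZYX, a focal adhesion protein, by 0.77 and 1.28, in Hep3B and Huh7 in the authors' deposited tables. CNN1, a calponin, rose by 2.92 in Huh7 in the authors' deposited table. CNN1 and FHL2 were under 2 CPM in Hep3B.

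A further 10 genes of the CCN family and the TGF-beta response, which also induces CTGF, completed the comparison. With both drugs 3 were called higher and 3 lower in Hep3B (median log2 0.02), and 5 higher and 1 lower in Huh7 (median 0.45), in the authors' deposited tables. In each line all of the called genes were among the 7 at 2 CPM or more. SMAD7, the feedback inhibitor of TGF-beta signaling, rose by log2 0.98 in Hep3B and 0.91 in Huh7 in the authors' deposited tables. THBS1, a matricellular protein, fell by 0.98 on the log2 scale in Hep3B and rose by 1.71 in Huh7, and TGFBI rose by 0.36 and 1.04, in the authors' deposited tables. CTGF passed in neither both-drug table, and in each line 4 of these 10 genes did not pass either. CTGF is itself above 2 CPM, and in each line 6 of the 7 genes at that level passed.

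**Figure D5:**
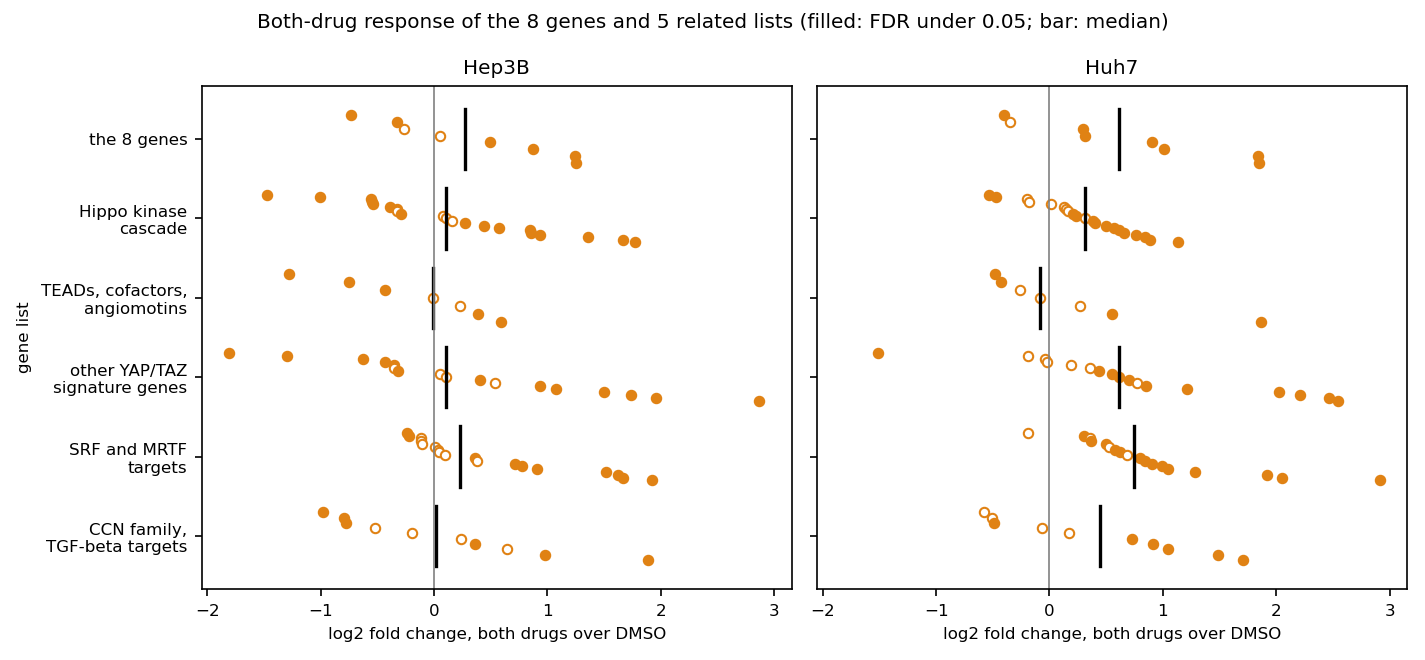
Log2 fold change with both drugs over DMSO (x axis) for the 8 genes and each of the 5 related lists in both lines, 1 point per gene, filled where the authors' FDR was under 0.05, with a bar at the list's median. The Huh7 median of the SRF and MRTF targets is 0.74 and that of the 8 genes 0.61.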

How the data were processed

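Poly-A RNA was sequenced in 70 libraries, which their labels place in 8 groups of 8 or 9. The authors' tool was edgeR and their builds hg19 and GRCh37, per the submitters' processing notes. Not given in the sources used here are the aligner, counting program, normalization and form of test. The authors deposited 6 tables, each setting a drug group against its line's DMSO group. Per the file headers, these hold for 32321 transcripts the authors' average log2 CPM, log2 fold change, p-value and FDR, and in how many libraries the count was nonzero. Depth per library is unknown, since no values of single libraries or counts were used, and the planned count tests could not be made.

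The representative transcript marked by the authors was taken for each gene, and a gene was called at FDR under 0.05. Reading the fold as drug over DMSO, the DMSO levels implied by tables of the same line had differences with an SD of 0.00380 to 0.0144 on the log2 scale, against 0.336 to 0.694 for the reverse reading. In the drug over DMSO reading the median of these differences ran from -0.0803 to 0.0454. Each DMSO level given is the average of the implied levels of its line on the log2 scale, and the fold changes were added to it. Differences of fold changes were tested by an approximate normal test, whose standard error was the fold change over the normal score of its p. The error was never below the median among genes of like expression (20 bins), which replaced it where p exceeded 0.5. This test was tested on simulated data. The simulation covered only the departure from the sum in Hep3B, with normal values and the same spread in every group of a gene. Neither Huh7 nor the differences between the lines were simulated. Promoters came from RefSeq (GRCh38.p14) and gene models from GENCODE 29. All 8 genes are named in every comparison, with up to 4 called genes at 2 CPM or more with the largest both-drug change from each related list, and the 5 genes most like CTGF and CYR61. A few genes that this rule names are not reported here. The members and lists were chosen with earlier results of these data known. Alternatives were a threshold of 0.01, other adjustments, centring, no expression minimum and other errors. Python 3.11.15, numpy 2.4.6, pandas 2.3.3, scipy 1.17.1 and matplotlib 3.10.9 were used.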

Additional observations from a re-analysis of the deposited data

Results flagged for a closer look

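Values here are Hep3B minus Huh7 on the log2 scale, with the adjusted p of the approximate test of the difference itself. Of the 8 genes, 0 were called higher in Hep3B and 3 lower with both drugs. For sorafenib as labelled 4 were called higher and 1 lower, and for GW3965 as labelled 1 higher and 1 lower. With both drugs these were WWTR1 (-1.05, adjusted p = 3.10e-13), CYR61 (-0.98, adjusted p = 0.0105) and TEAD1 (-0.41, adjusted p = 0.0138). For sorafenib they were ANKRD1 (1.77, adjusted p = 0.00256), AMOTL2 (0.83, adjusted p = 2.69e-06), CYR61 (0.80, adjusted p = 7.83e-06), TEAD1 (0.52, adjusted p = 0.0259) and WWTR1 (-0.32, adjusted p = 0.0474). For GW3965 they were CTGF (1.15, adjusted p = 0.00417) and WWTR1 (-0.36, adjusted p = 0.0209). Of all genes tested, 44% were called with both drugs, 35.9% for sorafenib and 24.8% for GW3965. Calls are not pooled over treatments here, since the share of all genes called in that way was not computed. The 7 single-drug differences are between groups as labelled, and in Huh7 ABCG1, ABCA1 and DUSP6 go against those labels. The sorafenib differences of CYR61 and WWTR1 lost their calls with the largest error of the line where p exceeds 0.5.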

How the results depend on the processing

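No paired analysis was possible because the tables hold comparisons of groups and no values of single libraries, so neither the fit with a replicate block nor leaving out a library was run. Of 69 alternatives to the 15 counts of called genes, 61 stayed within 1.5 times and 8 moved. At FDR under 0.01 the count fell from 1 to 0 for Hep3B GW3965 and from 2 to 1 for the Huh7 group labelled GW3965. Adjustment over the representative transcripts alone also left 0 for Hep3B GW3965. At an adjusted p under 0.01 the approximate test left 0 for both drugs against sorafenib in Hep3B, and between the lines 1 for GW3965, 3 for sorafenib and 1 for both drugs. With the largest error of the line where p exceeds 0.5, an alternative chosen after seeing the data, the sorafenib difference between the lines also left 3, with CYR61 at an adjusted p of 0.107. The WWTR1 sorafenib difference (0.0474 by the approximate test) was lost at that threshold of 0.01, and at 0.05 without the expression minimum (0.0739), with the largest error of the line (0.0786) and after centring (0.0512).

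Of 552 alternatives for single genes, 5 reversed, all in values that were not called. After subtraction of the median of expressed genes the Huh7 group labelled sorafenib had AMOTL2 at 0.028 and WWTR1 at 0.012. Subtraction of the median difference, also chosen after seeing the data, gave LATS2 -0.022 for both drugs against sorafenib in Hep3B. It gave WWTR1 -0.026 for both drugs against the group labelled GW3965 in Huh7 and -0.031 for its departure from the sum. Another 26 lost their call and 2 gained one. Depth per library is unknown, so precision is known only through the authors' p-values.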
